A study of Rattus norvegicus with 96 samples.

Results

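Gene expression in the dorsolateral bed nucleus of the stria terminalis (dlBNST) was compared between alcohol naive rats and alcohol dependent rats, on 4 arrays of each group. These 8 arrays were taken by their labels from a series of 96 arrays, which holds 8 brain regions and 3 groups of rats with 4 arrays for each region and group. Rats of the dependent group had self-administered 10% alcohol for 4 weeks and were then exposed to chronic intermittent ethanol vapor for 4 weeks, with drinking sessions in acute withdrawal, 6 to 8 h after they left the vapor. Tissue was collected after a further 3 weeks without vapor, at the same age from naive rats that had received no alcohol. A non-dependent group self-administered alcohol without the vapor, and its 4 dlBNST arrays are given beside the other groups and enter the estimate of the spread. Between naive and dependent rats the drinking, the vapor and the later withdrawal sessions differ together and cannot be told apart. The study describes adult male Wistar rats, 4 in each group, and each array carries RNA of microdissected tissue that was amplified before labeling, from 30 or 50 ng depending on the region.

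The BNST is a group of mostly GABA-ergic nuclei of the extended amygdala. It receives input from the central nucleus of the amygdala (CeA) and sends projections to the hypothalamus and the ventral tegmental area, and it is known for its part in anxiety-like behavior, stress responses and the negative state of alcohol withdrawal. Neuropeptide Y and corticotropin-releasing factor act in it in opposite ways, with neuropeptide Y described as calming and corticotropin-releasing factor as stress-like. Neuropeptide Y signals through receptors coupled to inhibitory G proteins, of which the Y1 receptor, the product of Npy1r, is a main form on forebrain neurons.

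Expression of 9 of the 8715 genes tested differed between naive and dependent rats in the dlBNST (0.103%), at an adjusted p below 0.05 with limma. Of these, 5 genes (0.0574%) fell in dependent rats, Icoslg, Rasgrp2, Npy1r, Stk32c and Zfp512, and 4 genes (0.0459%) rose, Eif5b, Atrx, Ankrd11 and Mon2. Quantile normalization of the same values turned this split to 8 genes higher and 5 lower, and scaling every array to a common median gave 6 higher and 4 lower, with 9 and 8 of the same 9 genes among them. The number of calls rested on single arrays: it ran from 0 to 45 genes when each of the 12 arrays was left out in turn. None of the 9 genes turned its direction in any setting tried. They were chosen for their separation in these same arrays, so a kept direction adds no support.

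To show the start regions of the genes with the smallest p in each direction, the promoters of Icoslg and Rasgrp2, which fell, and of Eif5b and Atrx, which rose, are printed from RefSeq on build GRCr8, from 250 bases before to 50 bases after the start of the gene. Capitals mark matches, on either strand, to CGTCA, a part of the cAMP response element that reads TGACG on the other strand, to AGAACA, a part of the glucocorticoid response element, to the E-box CACGTG, to the GC box GGGCGG and to the TATA box TATAAA. They lie at chr20:10610316-10610615 on the minus strand (Icoslg), chr1:213136484-213136783 on the plus strand (Rasgrp2), chr9:47718456-47718755 on the plus strand (Eif5b) and chrX:75062831-75063130 on the minus strand (Atrx).
Icoslg: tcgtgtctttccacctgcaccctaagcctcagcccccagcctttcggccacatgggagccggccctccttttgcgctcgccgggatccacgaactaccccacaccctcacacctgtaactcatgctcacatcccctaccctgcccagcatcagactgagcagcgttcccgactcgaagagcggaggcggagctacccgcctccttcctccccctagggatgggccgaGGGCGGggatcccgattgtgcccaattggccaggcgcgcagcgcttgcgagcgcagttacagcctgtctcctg
Rasgrp2: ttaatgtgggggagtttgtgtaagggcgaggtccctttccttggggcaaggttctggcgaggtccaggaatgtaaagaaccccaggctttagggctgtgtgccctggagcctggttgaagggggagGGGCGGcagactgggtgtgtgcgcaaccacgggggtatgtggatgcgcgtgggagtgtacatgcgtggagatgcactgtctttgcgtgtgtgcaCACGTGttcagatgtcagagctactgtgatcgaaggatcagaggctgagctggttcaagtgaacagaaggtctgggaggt
Eif5b: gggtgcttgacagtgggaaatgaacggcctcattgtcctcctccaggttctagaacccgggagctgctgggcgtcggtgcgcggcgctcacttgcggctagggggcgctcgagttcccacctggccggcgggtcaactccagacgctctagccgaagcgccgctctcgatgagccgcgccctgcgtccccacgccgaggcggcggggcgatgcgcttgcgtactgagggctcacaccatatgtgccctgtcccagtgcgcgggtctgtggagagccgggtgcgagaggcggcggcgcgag
Atrx: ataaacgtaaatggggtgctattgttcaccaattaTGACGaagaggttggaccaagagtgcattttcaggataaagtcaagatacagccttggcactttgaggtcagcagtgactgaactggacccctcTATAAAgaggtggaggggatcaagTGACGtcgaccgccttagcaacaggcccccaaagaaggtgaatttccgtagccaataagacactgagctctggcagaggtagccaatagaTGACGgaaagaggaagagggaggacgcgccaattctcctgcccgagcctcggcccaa

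A promoter was found for all 9 genes. GGGCGG was in the windows of Icoslg, Rasgrp2, Zfp512, Stk32c, Ankrd11 and Mon2, and in 34.9% of the 27457 promoters of the table. CGTCA was in those of Npy1r, Zfp512, Atrx, Ankrd11 and Mon2, and in 22.0% of all promoters. The window of Atrx held 3 matches to CGTCA and 1 to TATAAA, which 14.3% of all promoters hold, and the window of Eif5b held none of the motifs searched. CACGTG was in those of Rasgrp2 and Zfp512 (6.65% of all promoters) and AGAACA in that of Zfp512 (20.1%). Such matches describe the letters of the windows and were not tested for binding. The GC content of the window was 49.0% for Npy1r and 71.0% for Mon2, the lowest and the highest of the 9, against a median of 61.3% over the tested genes with a promoter.

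Before the group comparison, the tissue was checked against its markers. Gad1, which makes GABA, stood at 13.85 in naive and 13.84 in dependent rats, and Gad2, a second GABA-making enzyme, at 8.35 and 8.52, as means of log2 signal over 4 arrays. In naive medial prefrontal cortex Gad1 was at 13.10 and Gad2 at 4.46, so the level of Gad1 hardly sets the dlBNST apart. Of the 17 markers of BNST neurons on the array, 14 passed the filter on dim genes, a mean log2 signal above 4. The cortical marker Slc17a7 was at 3.31 in naive dlBNST arrays and at 11.7 in naive medial prefrontal cortex, and the dopamine neuron marker Th at 3.41 in the dlBNST and 9.24 in the ventral tegmental area. Of 13 cortical markers on the array 8 were below the filter in the dlBNST, but not all parted the regions. In naive dlBNST and prefrontal arrays Lamp5 was at 11.07 and 11.57 and Nptx1 at 12.05 and 13.35. Rorb was higher in the dlBNST, at 7.23 against 5.04. The dlBNST arrays carried Ttr, a gene of the choroid plexus, at 8.56 in naive rats, against 5.83 in the ventral BNST. Since the tissue is a mixture, fewer cells of a type and less RNA per cell cannot be told apart in any value given here.

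Naive replicate 2 stood apart in several markers. Slc17a6, the vesicular glutamate transporter of subcortical neurons, was at 4.60, 9.06, 4.56 and 5.21 in the 4 naive arrays and between 4.23 and 5.43 in the 8 non-dependent and dependent arrays. Dlx1 was highest and Ppp1r1b lowest in the same array among the naive arrays. Without it no gene passed the threshold (1171 did at an unadjusted p below 0.05), while the log2 difference of Npy1r was -1.31 and that of Eif5b 1.12. No gene passed without naive replicate 3 or dependent replicate 3 or 4 either, so the loss was not particular to naive replicate 2. Each dlBNST array correlated with its closest array at 0.994 to 0.997 over genes.

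Among the 5 genes that fell, Npy1r is the receptor of neuropeptide Y. Its log2 signal was 8.04, 7.87, 8.17 and 7.86 in naive rats, 7.33, 6.67, 7.51 and 7.40 in non-dependent rats, and 6.89, 6.36, 6.93 and 6.67 in dependent rats. All dependent arrays were below all naive arrays, and the non-dependent group had its mean between them. The log2 difference from naive to dependent rats was -1.27 ± 0.18 (SE, adjusted p = 0.0207, limma). Npy1r is measured by a single probe set. Like the other genes called, it lost its call without naive replicate 1, 2 or 3 or dependent replicate 3 or 4. The same held by the pairwise t-statistic that the methods name. Npy1r also lost its call without naive replicate 4 or dependent replicate 2, where Icoslg alone of the genes called kept it.

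Icoslg, the ligand of the T-cell costimulatory receptor ICOS, was a dim gene in this tissue. It was at 5.59, 5.92, 5.62 and 5.38 in naive rats, at 5.34, 5.03, 5.30 and 4.89 in non-dependent rats and at 4.29, 4.72, 3.98 and 4.41 in dependent rats. Naive and dependent arrays did not overlap, and all non-dependent arrays were above all dependent arrays and below all naive arrays. Its log2 difference was -1.28 ± 0.17 (SE, adjusted p = 0.0207, limma). A second probe set of Icoslg had a mean of 2.70, and with the mean of both Icoslg lay below the filter and was not tested.

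Rasgrp2 encodes an exchange factor that activates the small GTPase Rap in response to calcium and diacylglycerol. Its arrays read 7.31, 7.25, 7.32 and 7.21 in naive rats, 6.81, 6.89, 6.99 and 7.38 in non-dependent rats, and 6.53, 6.30, 6.15 and 6.40 in dependent rats. The dependent arrays were below all others, and non-dependent replicate 4 was above all naive arrays. Its log2 difference was -0.93 ± 0.13 (SE, adjusted p = 0.0207, limma). A second, dimmer probe set (mean 3.98) differed by -0.13 ± 0.14, and with the mean of both the difference was -0.53 and did not pass (adjusted p = 0.105). Rasgrp2 is also a striatal marker: among naive rats its mean was highest in the core of the nucleus accumbens, at 8.20, and the dlBNST came next with 7.27 ± 0.05 (SD, n = 4). No other striatal marker passed the threshold. Ppp1r1b (DARPP-32) differed by 1.13 ± 0.29 and Foxp1, a transcription factor of striatal neurons, by 0.70 ± 0.16 (0.45 with the mean of its probe sets), in the opposite direction (SE, adjusted p = 0.125 and 0.0986, limma), and the mean over the 12 tested striatal markers ran from 7.74 to 8.04 in naive and from 8.00 to 8.11 in dependent rats. A part of tissue composition in the difference of Rasgrp2 was not tested.

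Stk32c, a serine/threonine kinase of the brain, was at 9.91, 9.90, 10.12 and 9.94 in naive rats, at 9.64, 9.29, 9.47 and 9.60 in non-dependent rats, and at 9.39, 9.24, 9.40 and 9.20 in dependent rats. Zfp512, a zinc finger protein, was at 9.39, 9.57, 9.53 and 9.74 in naive, at 9.14, 9.05, 8.97 and 9.07 in non-dependent, and at 8.83, 8.87, 9.06 and 8.90 in dependent rats. Each is measured by a single probe set. Naive and dependent arrays did not overlap for either gene. The log2 differences were -0.66 ± 0.10 for Stk32c and -0.64 ± 0.099 for Zfp512 (SE, adjusted p = 0.0363 for both, limma), and the non-dependent means, 9.50 and 9.06, were nearer to the dependent than to the naive means. Stk32c lost its call when arrays were scaled to a common median (adjusted p = 0.0683).

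**Figure D1:**
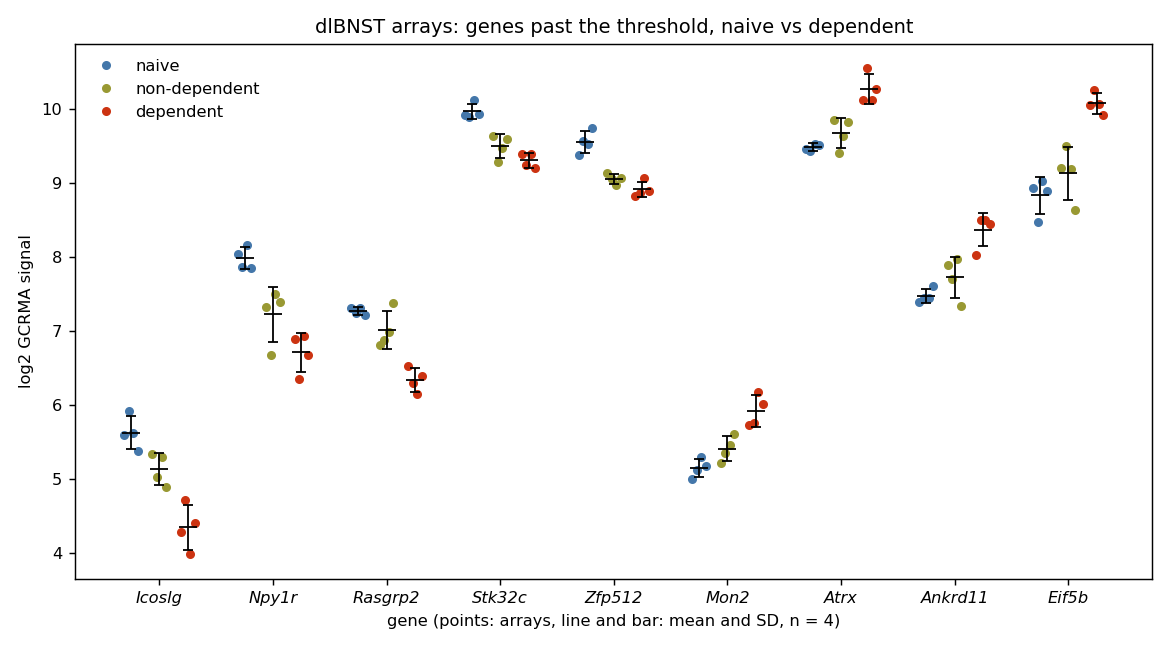
The log2 GCRMA signal of the 9 genes past the threshold (y axis) is plotted for the 4 naive, 4 non-dependent and 4 dependent dlBNST arrays of each gene (x axis), with 1 point an array and the mean and SD as line and bar. For each gene the naive and dependent points do not overlap, and the non-dependent mean lies between the other means. The 9 genes were chosen for their naive to dependent difference in these arrays, which favors both patterns. Of all genes tested, 3.09% did not overlap and were higher in dependent rats, and 7.23% did not overlap and were lower.

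Among the 4 genes that rose, Eif5b encodes the factor that joins the ribosomal subunits at the end of translation initiation. Its log2 signal was 8.94, 8.47, 9.03 and 8.90 in naive rats, 9.20, 9.50, 9.19 and 8.64 in non-dependent rats, and 10.06, 10.26, 10.07 and 9.92 in dependent rats. The dependent arrays were above all 8 others. The log2 difference was 1.24 ± 0.17 (SE, adjusted p = 0.0207, limma). The probe sets of Eif5b did not move alike: the brightest, used here, differed by 1.24, another of nearly the same mean signal (8.98) by -0.25 ± 0.085 and the dimmest (6.60) by 0.36 ± 0.15. With the mean of the 3 probe sets the log2 difference was 0.45 and did not pass the threshold (adjusted p = 0.0791, limma). The change given for Eif5b is that of 1 probe set.

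Atrx and Ankrd11 act on chromatin, Atrx as a remodeler that places a histone variant at repeats and Ankrd11 as a partner of histone deacetylases. Atrx was at 9.46, 9.43, 9.54 and 9.52 in naive, at 9.86, 9.41, 9.63 and 9.82 in non-dependent, and at 10.12, 10.55, 10.13 and 10.27 in dependent rats. Ankrd11 was at 7.39, 7.44, 7.45 and 7.61 in naive, at 7.89, 7.71, 7.97 and 7.34 in non-dependent, and at 8.03, 8.50, 8.51 and 8.44 in dependent rats. In both genes all dependent arrays were above all other arrays. Their log2 differences were 0.78 ± 0.12 for Atrx (adjusted p = 0.0363) and 0.90 ± 0.15 for Ankrd11 (adjusted p = 0.0407, both SE, limma). The other 2 probe sets of Ankrd11 differed by 0.82 and 1.36, and the other 5 of Atrx by 0.11 to 1.06, all in the same direction. With the mean of its probe sets neither gene passed the threshold (adjusted p = 0.165 for Atrx and 0.0842 for Ankrd11).

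Mon2 takes part in traffic between endosomes and the Golgi. It was at 5.01, 5.12, 5.30 and 5.18 in naive rats, at 5.22, 5.35, 5.46 and 5.62 in non-dependent rats, and at 5.73, 5.75, 6.17 and 6.01 in dependent rats. The dependent arrays were above all others. The log2 difference was 0.76 ± 0.13 (SE, adjusted p = 0.0407, limma), and the second probe set differed by 0.24 ± 0.11. With the mean of both the difference was 0.50 and did not pass (adjusted p = 0.0842). Mon2 also lost its call with the 8 naive and dependent arrays alone (adjusted p = 0.0839), with a trend and robust moderation (0.0582), with the replicate number as a block (0.0514) and by the pairwise statistic (0.104).

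The genes that came next in the order of p did not pass the threshold. Upward they were Nsrp1, a splicing regulator (0.69 ± 0.12, SE), the transcription factor Nfix (0.80 ± 0.14), Stox2 (0.95 ± 0.18), the Integrator subunit Ints13 (0.74 ± 0.14), the endocytic scaffold Itsn2 (0.74 ± 0.14) and Tspan12 (0.69 ± 0.14). Downward they were Upf3a, of nonsense-mediated decay (-0.70 ± 0.12), Ppp1r26 (-1.02 ± 0.18), the magnesium transporter Slc41a3 (-0.60 ± 0.11), the transcription factor Grhl1 (-0.92 ± 0.17) and Tmie (-0.66 ± 0.13). Their adjusted p ran from 0.0614 to 0.086 with limma. With the mean of all probe sets of a gene the difference was 0.46 for Nsrp1, 0.39 for Nfix, 0.47 for Ints13, 0.34 for Itsn2 and -0.42 for Grhl1. For each of these 11 genes the naive and dependent arrays did not overlap, as for 269 genes higher (3.09%) and 630 lower (7.23%) of all genes tested.

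**Figure D2:**
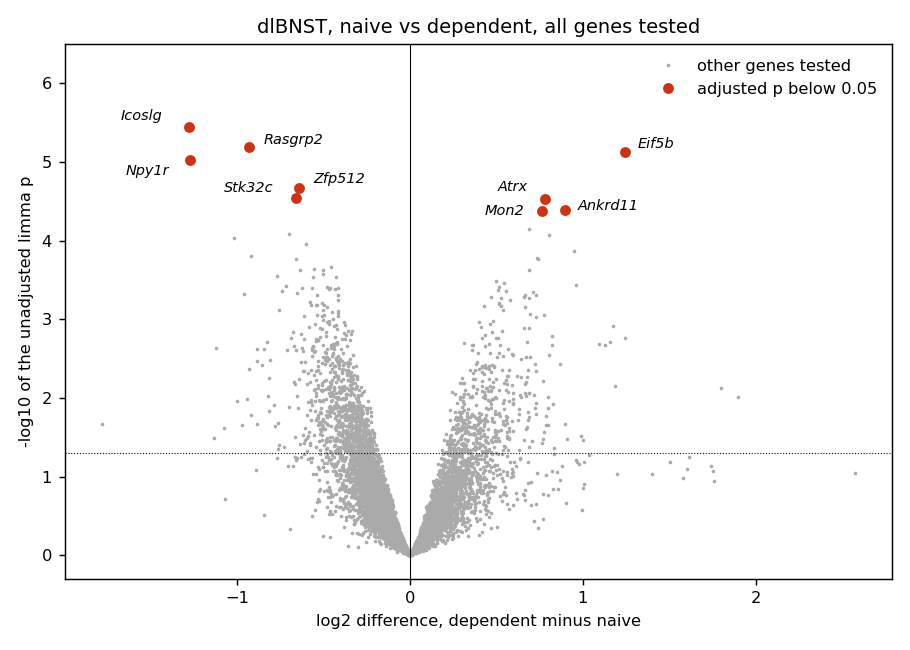
Each of the 8715 genes tested is plotted by its log2 difference, dependent minus naive (x axis), and by -log10 of its unadjusted limma p (y axis, dotted line at p of 0.05). The 9 named genes past the adjusted threshold are in red, 5 on the left and 4 on the right.

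At an unadjusted p below 0.05, 1374 genes differed (15.8%), 468 higher (5.37%) and 906 lower (10.4%) in dependent rats, and the median log2 difference over all genes tested was -0.045. The gene lists were chosen with earlier results of these data known. They are described against these shares, with no test of a list, and a share above that of all genes adds no support. Many of their counts rest on single arrays, and a range after a count is that over the 12 settings without 1 array. RefSeq gene spans on GRCr8 had a median of 43.5 kb among the genes higher and 23.7 kb among those lower at this p, against 26.9 kb over all genes tested. Of the genes past the threshold, those that rose spanned 54.6 kb (Eif5b), 78.7 kb (Mon2), 146 kb (Atrx) and 159 kb (Ankrd11), and those that fell 9.66 kb (Npy1r), 10.3 kb (Icoslg), 17.2 kb (Rasgrp2), 31.0 kb (Zfp512) and 81.0 kb (Stk32c).

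The ligand and the other receptors of Npy1r's system did not pass the test. Of 7 genes of the neuropeptide Y list on the array 3 were bright enough, and Npy1r alone passed. Npy had a mean of 8.67 in naive and 8.63 in dependent rats (-0.04 ± 0.27, SE, adjusted p = 0.966, limma), and its sign turned under quantile normalization and array weights. Npy5r differed by -0.19 ± 0.19 (adjusted p = 0.677). Npy2r, with a mean of 2.18, was below the filter. Of the corticotropin-releasing factor list, Crh itself stood at 8.24 in naive and 8.79 in dependent rats (0.56 ± 0.38, adjusted p = 0.512) and the binding protein Crhbp at 4.43 and 4.18 (-0.25 ± 0.15, adjusted p = 0.458), and the 2 other genes of the list on the array were below the filter.

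**Figure D3:**
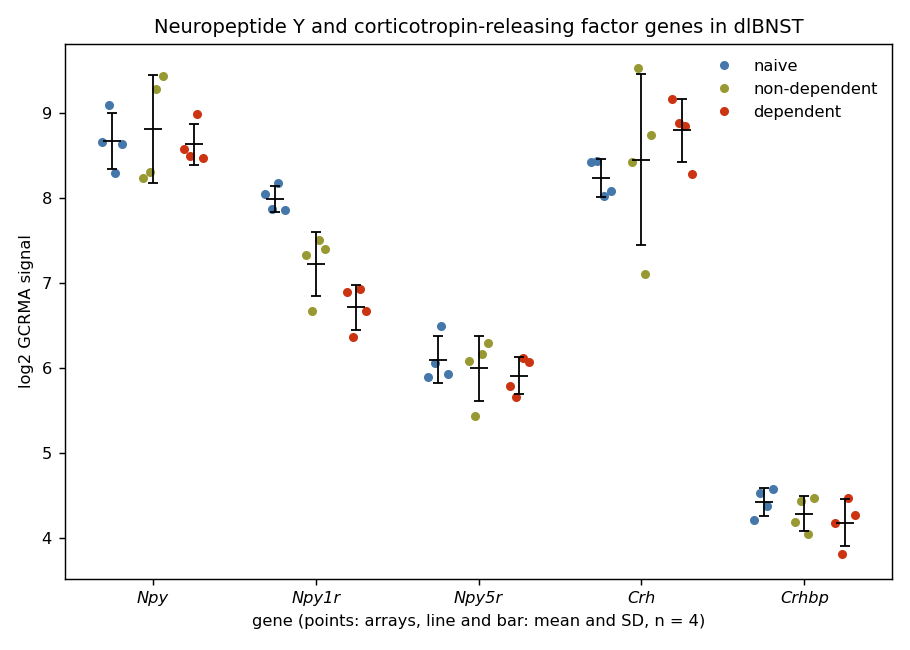
The log2 GCRMA signal (y axis) of the tested neuropeptide Y and corticotropin-releasing factor genes (x axis) is plotted for each of the 12 dlBNST arrays, with 1 point an array and the mean and SD as line and bar. Npy1r alone has dependent arrays apart from naive arrays.

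Among the 25 tested genes of opioid and other peptide systems none passed the adjusted threshold, and at an unadjusted p below 0.05 there were 4 lower (1 to 7) and 1 higher (0 to 2), with a median of -0.049. The count of lower genes was 1 without dependent replicate 2, 2 without naive replicate 2 or 4 or dependent replicate 3, and 7 without dependent replicate 4. Vip, vasoactive intestinal peptide, differed by -0.82 ± 0.27 and the nociceptin receptor Oprl1 by -0.51 ± 0.21, while Tac3, a tachykinin, differed by 0.66 ± 0.28 (SE, adjusted p = 0.185, 0.264 and 0.278, limma). With the mean of its probe sets Oprl1 differed by -0.13, and without dependent replicate 1 Tac3 by 0.43. Of 17 GABA signaling genes 4 were lower and 1 higher at that p (median -0.114), with 2 lower without naive replicate 4 or dependent replicate 2, 3 or 4, and after quantile normalization or median scaling. Slc32a1, which loads GABA into vesicles, differed by -0.50 ± 0.17 and Gabarapl1, of receptor traffic and autophagy, by -0.42 ± 0.088, and the receptor subunit Gabra2 by 0.46 ± 0.11 (adjusted p = 0.192, 0.086 and 0.11, limma). Gad1 had a difference of -0.01 ± 0.082 (adjusted p = 0.984), whose sign turned under median scaling and with the mean of its probe sets.

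Of 31 synaptic vesicle and exocytosis genes 9 were lower and 0 higher at an unadjusted p below 0.05, a share of 29.0% beside 10.4% over all genes, with a median of -0.123 and no gene past the adjusted threshold. The count of lower genes was 4 without dependent replicate 3, 5 after quantile normalization and 4 with the mean of all probe sets of a gene. They were Nsf, Cplx1, Syt4, Syn2, Napb, Syn1, Syp, Rab3c and Slc6a17. Nsf, the ATPase that takes apart spent fusion complexes, was at 11.77 in naive and 11.26 in dependent rats (-0.51 ± 0.16), Cplx1 differed by -0.45 ± 0.15 and Syt4 by -0.29 ± 0.099 (SE, adjusted p = 0.178, 0.187 and 0.207, limma). These values are those of the brightest probe sets, and with the mean of all probe sets they were -0.023 for Nsf, -0.25 for Cplx1 and -0.12 for Syt4. Of 67 genes of oxidative phosphorylation 10 were lower (7 to 14) and 0 higher (median -0.087), led by the complex I subunits Ndufs6 (-0.43 ± 0.087), Ndufs3 (-0.51 ± 0.13) and Ndufb6 (-0.62 ± 0.17), with adjusted p of 0.086 to 0.129. Of 59 endosome and Golgi genes 10 were lower (8 to 12) and 2 higher (median -0.092), and besides Mon2, which rose, Vps33a differed by -0.47 ± 0.099 and the adaptor subunit Ap1g1 by -0.51 ± 0.11 (adjusted p = 0.086 and 0.09).

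Among chromatin regulators the share of higher genes was above that of all genes. Of 81 tested, 9 were higher and 4 lower at an unadjusted p below 0.05 (11.1% and 4.94%), and the median was 0.069. Atrx and Ankrd11 passed the adjusted threshold, but not with the mean of their probe sets (adjusted p = 0.165 and 0.0842, limma). Without single arrays 6 to 12 were higher and 4 to 5 lower. The higher genes included the cohesin loader Nipbl and the remodelers Chd4 and Smarca4, and the lower ones the cohesin subunit Smc1a (-0.77 ± 0.16, SE, adjusted p = 0.086, limma) and the deacetylases Hdac1 and Hdac6. Of 50 translation factors 3 were higher, Eif5b among them, and 3 lower (1 to 5, median -0.029). Of 22 Ras and Rap regulators 3 were higher and 2 lower (median 0.003): the GTPase-activating proteins Rasa1 and Sipa1l1 differed by 0.54 ± 0.12 and 0.67 ± 0.18 (adjusted p = 0.0948 and 0.137, and 0.29 for Rasa1 with the mean of its probe sets), opposite to the exchange factor Rasgrp2. Of 17 genes of costimulation and cytokine signaling 2 were lower, Icoslg and Irak1, and Il6r was higher (median 0.008).

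Other lists had few genes at that p. Of 34 calcium and potassium channels 5 were lower (1 to 6) and 1 higher (median -0.036). There were 1 to 3 lower without any 1 of the naive arrays, dependent replicate 1, 2 or 3 or non-dependent replicate 1, and 2 after either scaling. The list held Cacna2d1, the subunit bound by gabapentin, at -0.88 ± 0.23 and Cacna1d at 0.46 ± 0.14 (SE, adjusted p = 0.127 and 0.161, limma). Of 26 glutamate receptors, scaffolds and transporters 2 were lower (0 to 2) and 1 higher (median 0.010), with the scaffold Shank2 at 0.68 ± 0.18 (adjusted p = 0.125) and at 0.32 with the mean of its probe sets. Of 42 heat shock proteins and chaperones 6 were lower (1 to 7) and 2 higher (median -0.064), with 1 lower without naive replicate 3 and after quantile normalization, and 3 without naive replicate 1 or 4 or dependent replicate 2 or 4. Of 20 glucocorticoid receptors and induced genes 2 were higher, Hsp90ab1 and Mt2A (median 0.039), and of 13 immediate early genes Egr1 alone was higher (0.49 ± 0.20, adjusted p = 0.269, and 0.31 without dependent replicate 3), with 0 to 3 genes higher without single arrays. Of 17 genes of ethanol and aldehyde metabolism the catalase gene Cat was higher (0.53 ± 0.13, adjusted p = 0.116) and Aldh1a1 (-0.86 ± 0.24, adjusted p = 0.143) and Akr1a1 lower. Clock genes (1 of 14 higher), ribosomal proteins (1 higher and 2 lower of 40) and monoamine and acetylcholine receptors (1 of 8 lower) had shares near those of all genes or fewer calls.

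**Figure D4:**
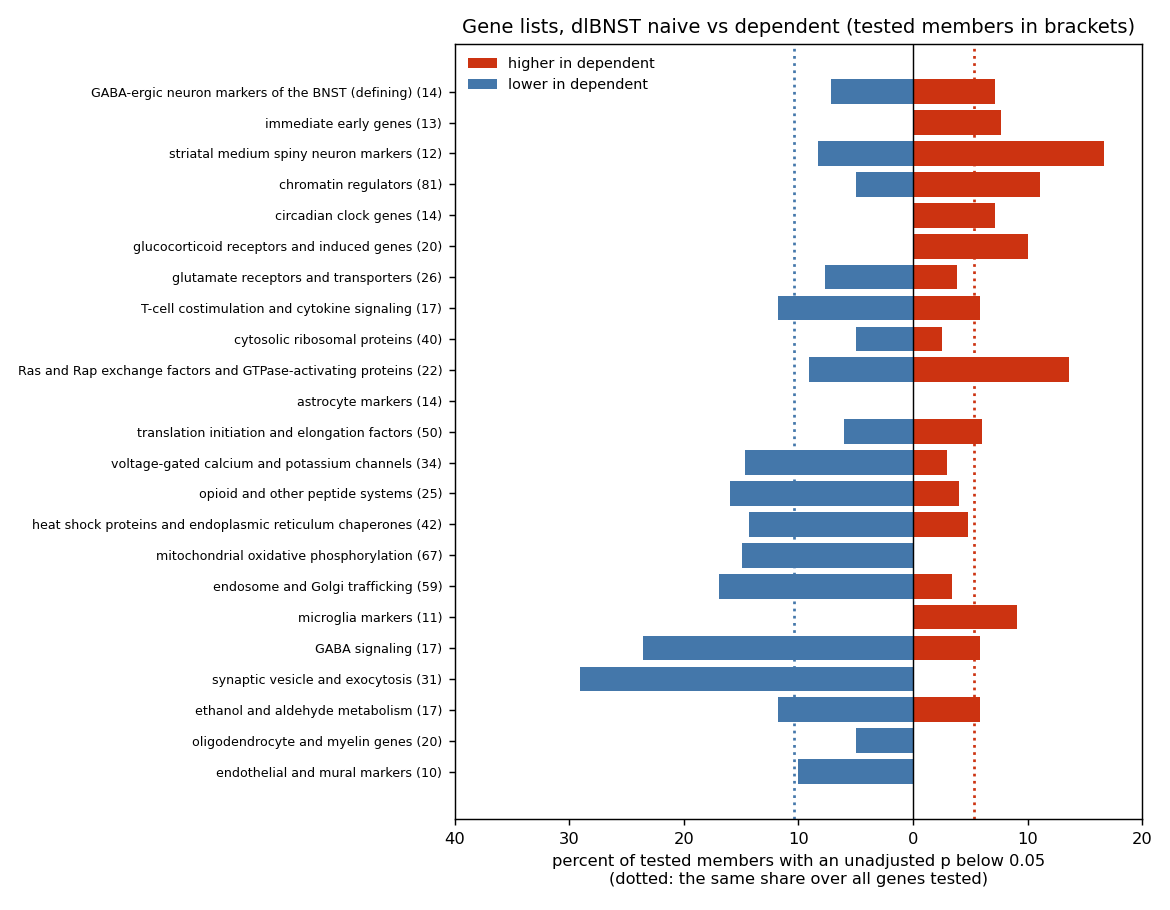
For each gene list with at least 10 tested members (y axis, number tested in brackets, ordered by median log2 difference), bars give the percent of members with an unadjusted p below 0.05, higher in dependent rats to the right and lower to the left (x axis). Dotted lines give the shares over all genes tested, 5.37% and 10.4%, and the longest bar is that of the synaptic vesicle list, 29.0% lower.

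Markers of other cells were set beside these lists. Of all 8715 genes tested 5158 had a log2 difference below 0. Of 20 oligodendrocyte genes 16 did (median -0.198), Myrf alone was lower at an unadjusted p below 0.05, and the mean over the list ran from 8.24 to 8.89 in naive and from 8.14 to 8.65 in dependent rats. Of 14 astrocyte markers none differed at that p (means 10.69 to 10.88 and 10.73 to 10.87). Of 11 microglia markers C1qa was higher (means 6.98 to 7.35 and 6.99 to 7.45), and of 10 endothelial markers 9 had a difference below 0 (median -0.206) and Flt1 was lower at that p, though not with the mean of its probe sets (list means 6.80 to 7.32 and 6.65 to 7.16). The 7 choroid plexus and ependyma markers ran from 5.17 to 5.96 in naive and from 5.46 to 7.24 in dependent rats, with Dynlrb2, a gene of motile cilia, at 10.01 in dependent replicate 2. The 3 blood cell genes tested ran from 4.48 to 4.93 and from 4.66 to 4.95. Of 15 measures of array quality and cell markers compared between the groups, 1 did not overlap. It was the mean of Aldh1a1 and Ddc, the 2 tested genes of the dopamine and noradrenaline list. This mean was 4.60 to 5.24 in naive and 4.37 to 4.54 in dependent rats. The exact permutation test (two-sided) gave p = 0.0286, the smallest that 4 against 4 arrays can give (adjusted p = 0.429 over the 15). Other markers on that list, Th, Slc6a3, Slc6a2 and Dbh among them, were below the filter. The 3′ minus 5′ difference of the beta-actin control probe sets was 7.68 in naive and 8.32 in dependent rats, and that of the Gapdh control probe sets went the other way, from 1.82 to 1.63 (exact permutation tests, two-sided, p = 0.114 and 0.2). The part of these measures in the group differences was not tested.

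To see whether the naive to dependent difference was of the same size in neighboring regions, it was compared with that in the ventral BNST (vBNST) and in the CeA by interaction contrasts. The study describes 4 rats a group for all regions, so the regions share animals, while no source ties an array to a rat and the contrasts treat the 16 arrays as independent. Against the CeA, none of 8679 genes passed the threshold with limma (0%), while 761 (8.77%) had an unadjusted p below 0.05, and quantile normalization gave 1 gene, and median scaling, array weights and a random replicate block 2 each. The smallest p were those of Icoslg, whose change differed by -1.20 ± 0.19 (SE, adjusted p = 0.0855), Eif5b (1.38 ± 0.23, adjusted p = 0.0855) and Ankrd11 (0.81 ± 0.14, adjusted p = 0.0894), and Npy1r differed by -1.43 ± 0.28 (adjusted p = 0.11). In the CeA alone the 9 genes differed between naive and dependent rats by -0.19 to 0.22, and Npy1r by 0.16 ± 0.27.

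Against the vBNST, 1 of 8763 genes passed the threshold (0.0114%), with 402 at an unadjusted p below 0.05 (4.59%). It was Moxd1, a monooxygenase related to dopamine beta-hydroxylase. In the dlBNST it was at 8.52, 8.67, 7.37 and 8.05 in naive and 9.36, 8.78, 8.70 and 8.85 in dependent rats, and in the vBNST at 8.00, 8.59, 8.39 and 7.83 in naive and 5.79, 5.76, 6.43 and 6.06 in dependent rats. Naive and dependent arrays overlapped in neither region and moved in opposite directions. The difference of the changes was 2.96 ± 0.38 (SE, adjusted p = 0.00845, limma), while within the dlBNST Moxd1 alone did not pass (0.77 ± 0.32, adjusted p = 0.277, and 0.51 without naive replicate 3). The interaction of Moxd1 lost its call with the replicate number as a block (adjusted p = 0.0657) and with all arrays of both regions in the fit (adjusted p = 0.313).

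Among the naive and dependent arrays of the dlBNST, vBNST and CeA, dependent replicate 1 of the vBNST stood apart, with a correlation of 0.960 with its closest array. It had the lowest Npy1r of the vBNST, 4.95, where the other 3 dependent arrays read 7.32, 7.40 and 7.33 and the naive arrays 7.40, 8.08, 8.09 and 7.47. It also had the highest Eif5b, 11.46, against 8.92 to 9.21 in the other dependent and 7.94 to 8.56 in the naive arrays. In both genes all dependent vBNST arrays lay on the same side of the naive arrays as in the dlBNST. For Npy1r the groups in the vBNST all but touched, with the highest dependent array at 7.395 and the lowest naive array at 7.401. Between dlBNST and vBNST the change of Npy1r differed by -0.26 ± 0.59 and that of Eif5b by -0.16 ± 0.58 (SE, adjusted p = 0.894 and 0.937, limma), and without the array standing apart by -0.86 and 0.44 (adjusted p = 0.57 and 0.788). Without it 6 genes passed, 1 higher and 5 lower, Moxd1 and Rasgrp2 among them. The change of Rasgrp2 differed by -1.51 ± 0.34 with all arrays (adjusted p = 0.797) and by -1.20 without that array (adjusted p = 0.037).

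**Figure D5:**
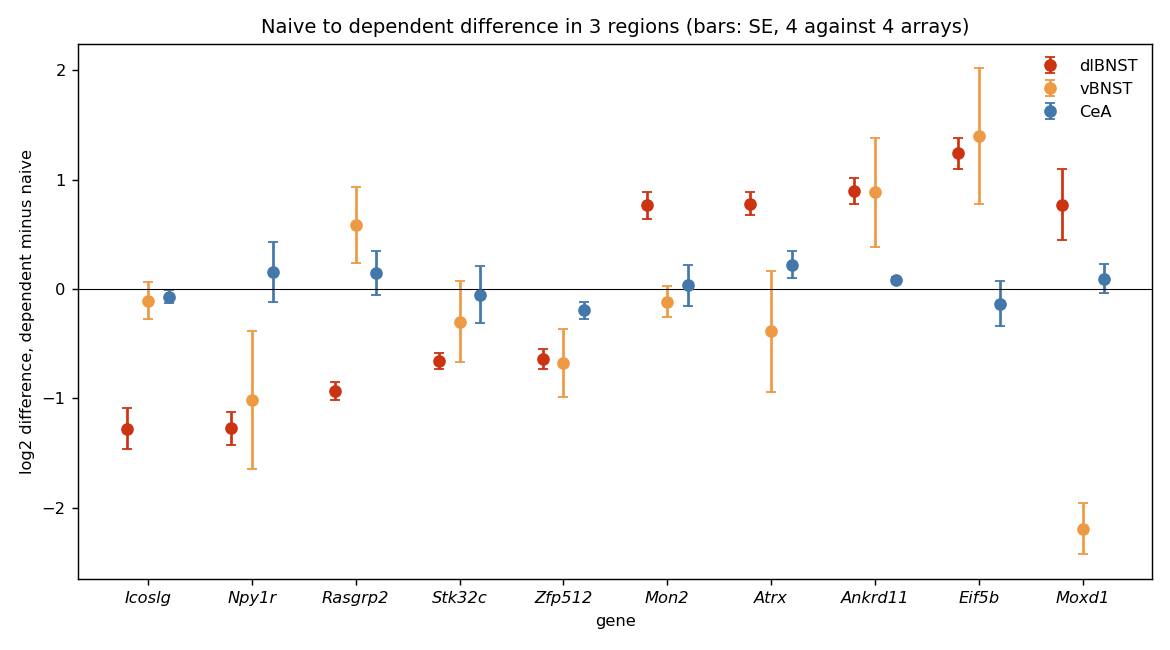
The log2 difference, dependent minus naive (y axis), of the 9 genes past the threshold in the dlBNST and of Moxd1 (x axis) is plotted for the dlBNST, the vBNST and the CeA, with points as differences of means and bars as SE of 4 against 4 arrays. The 9 genes lie near 0 in the CeA, and Moxd1 lies above 0 in the dlBNST and below 0 in the vBNST. The 9 genes were chosen for their dlBNST values.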

How the data were processed

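Per the labels, the authors made the deposited values from scanned Affymetrix rat arrays with GCRMA 2.36.0 under R 3.03. They are log2 signals from 0.95 to 14.84 for 31099 probe sets, before a later selection of probe sets by the authors. No read depth exists for arrays, and 4 arrays a group limit the precision. Replicate numbers were not taken to name rats, and no source says that they do, so p-values measure the spread between these arrays.

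Of the probe sets, 20832 named 1 gene, 436 several and 9831 none, by the annotation of the platform; 20764 were matched to RefSeq by gene ID. Each of 14218 genes was represented by its brightest probe set, by the mean of all 96 arrays, and genes with a mean above 4 over the 12 dlBNST arrays were tested. The 96 arrays include non-dependent replicate 2 of the CeA, whose correlation with its closest array was 0.374. That array was also in the alternative fit of all dlBNST and CeA arrays. Group differences were fitted with limma 3.58.1 in R 4.3.3 (lmFit and eBayes, 12 arrays, group as the only term) with Benjamini-Hochberg adjustment at 0.05. Interaction contrasts used the 16 naive and dependent arrays of the dlBNST and 1 other region. The fit was tested on simulated data. Array measures were compared by exact permutation over 70 arrangements. SE of regional differences in the plot are those of the means.

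The members, the 31 gene lists and the alternatives were chosen with earlier results of these data known. The genes named are all past the threshold, the 10 with the smallest p in each direction, all tested neuropeptide Y and corticotropin-releasing factor genes, up to 3 of each other list, up to 5 a direction past an interaction threshold or else 2, and tissue markers. Other genes named only as members of a count, and the remarks on Slc17a6 and Ttr, were chosen after their values were seen. Alternatives were other filters and scalings, the mean of probe sets, blocks, array weights, other sets of arrays and the pairwise statistic that the methods name.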

Additional observations from a re-analysis of the deposited data

Results flagged for a closer look

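In the 4 naive or 4 dependent dlBNST arrays of the named genes, 1 array lay far from the others in 14 of 214 groups, by the ratio of its gap to the whole range (above Dixon's critical value for 4 arrays), which chance gives in about 1 of 20 groups. In dependent rats these were Ankrd11 (0.869, replicate 1 at 8.03 against 8.44 to 8.51), Grhl1 (0.892, replicate 1 at 5.60 against 6.07 to 6.12), Syt4 (0.869, replicate 1 at 12.50), Nts (0.895, replicate 1 at 11.16 against 10.08 to 10.19) and Tspan12 (0.839, replicate 3 at 9.85). In naive rats naive replicate 2 was the far array for Slc17a6 (0.855), Dlx1 (0.892), Ppp1r1b (0.927), Rpl4 (0.897, 12.85 against 12.61 to 12.63) and Csf1r (0.87, 6.58 against 6.32 to 6.35). The other naive arrays were far for Mlc1 (0.968, replicate 1 at 9.48), Rsph1 (0.832, replicate 3 at 4.67), Mt2A (0.855, replicate 3 at 5.40) and Dnajb6 (0.888, replicate 4 at 7.17).

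The naive to dependent change of Moxd1 differed between dlBNST and vBNST by 2.96 on the log2 scale, with 0.77 in the dlBNST and -2.19 in the vBNST, and every array of a region lay on the same side. Pprc1, a coactivator of the family of mitochondrial biogenesis factors, had lower dependent arrays in the dlBNST (-0.39) and higher ones in the CeA (0.39), with no overlap in either region. The interaction contrast of Pprc1 did not pass the threshold (-0.78 ± 0.14, SE, adjusted p = 0.0996, limma).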

How the results depend on the processing

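Across 107 named genes, 2283 of 2309 values under the alternatives kept the direction of the dlBNST difference and 26 turned. Many of these genes were named for a small p in these same arrays, which favors a kept direction. Beside the 9 genes reported, 10 passed with no filter, 7 with a mean above 6, 13 after quantile normalization and 10 after median scaling. With the mean of all probe sets 3 passed (all lower), Npy1r, Zfp512 and Stk32c. Each of them has a single probe set, so this setting left their values as they were. None of the 9 genes with more than 1 probe set passed there. With array weights 151 passed (58 higher, 93 lower, all 9 among them). By the pairwise statistic of the methods 0 passed, with 1374 at an unadjusted p below 0.05 by the same statistic. Leaving out single arrays gave 0 to 45 genes. There were 45 without dependent replicate 1, 16 when non-dependent replicate 2 was left out, and 4 when non-dependent replicate 1 or 3 was. Without naive replicate 1 there was 1 gene, not among the 9 reported, and without naive replicate 4 or dependent replicate 2 there was 1 of the 9. There were 0 without naive replicate 2 or 3 or dependent replicate 3 or 4 (1062 to 1291 at an unadjusted p below 0.05). Deviations of same-numbered naive and dependent arrays from their group means had correlations of 0.110, -0.0762, -0.129 and -0.0342. Those of same-numbered naive and non-dependent arrays ran from -0.359 to 0.198, and of non-dependent and dependent arrays from -0.245 to 0.183. Such values cannot show whether arrays of the same number share more than the number. With the replicate number as a block 1 gene passed, Npy1r, and against the vBNST 0. The causes of these shifts were not tested.

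Against the vBNST, 7 genes passed with array weights, 0 with all arrays of both regions, 6 without the array standing apart, and 1 to 6 when single arrays were left out (6 without vBNST dependent replicate 1, 2 without dlBNST naive replicate 2). Against the CeA, 1 passed after quantile normalization, 2 after median scaling, 2 with array weights, 2 with the number as a random replicate block, and 0 to 2 when single arrays were left out (2 without dependent replicate 1 of either region). Without single arrays, 1 to 2 of the array measures did not overlap between groups.

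None of the dlBNST differences that turned sign had passed the threshold. They became 0.0021 for Npy after quantile normalization and 0.041 with array weights, 0.015 for Gad1 after median scaling and 0.020 with the mean of all probe sets, -0.00059 for Clock, 0.037 for Chrm3 and -0.030 for Eif3c with the mean of all probe sets, and -0.0023 for Slc4a1 and -0.020 for Cd3e with array weights. Without single arrays the differences ran from -0.16 to 0.10 for Npy, -0.14 to 0.26 for Hbb, -0.048 to 0.082 for Slc4a1, -0.055 to 0.10 for Cd3e, -0.033 to 0.20 for Slc30a3 and -0.036 to 0.031 for Gad1. The difference of the change from that in the vBNST turned to -0.013 for Zfp512 and -0.031 for Ankrd11 after quantile normalization, to 0.31 for Eif5b and -0.21 for Zfp512 with array weights, and to 0.44 for Eif5b and -0.20 for Zfp512 without the array standing apart. Without single arrays it ran from -0.40 to 0.44 for Eif5b, -0.20 to 0.20 for Zfp512 and -0.19 to 0.46 for Ankrd11. Probes of low signal limit what can be seen, and genes with a mean of 4 or less were not tested.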
